A study of Mus musculus with 24 samples.

Results

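Immediate early genes are transcribed within minutes of a stimulus, without new protein synthesis, and in neurons they are the usual record of recent activity. The 10 described here are Fos, Fosb, Jun and Junb, which encode subunits of the transcription factor AP-1, the zinc finger transcription factors Egr1 and Egr2, the neuron-restricted transcription factor Npas4, the orphan nuclear receptor Nr4a1, the nuclear protein gene Ier2, and Arc, which encodes a protein that acts at synapses on the removal of AMPA receptors. They were taken by symbol from the count files, where all 10 were found among 24062 genes.

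RNA came from brains of Celf6 knockout (KO) and wild-type (WT) mice at postnatal day 9, from tissue just behind the thalamus without the cortices. Celf6 is a member of the CELF genes, whose proteins bind RNA. Translating ribosome affinity purification (TRAP) recovered ribosome-bound RNA from serotonin cells through a TRAP allele specific to those cells, in KO and WT mice alike, and total RNA of the same tissue served as input. The groups were KO TRAP (n = 5), WT TRAP (n = 5), KO input (n = 5) and WT input (n = 3). All mice were at postnatal day 9. The labels give no strain and do not name the promoter that drives the TRAP allele. No stimulus is described, so the values are levels in unstimulated animals as far as the labels say.

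The 19 libraries used held 3390423 to 6861963 counts each, and WT input 4, with 325072 counts, was not used. Counts labelled WT input 2 and 3 differed from each other by less than the sampling noise of resequencing, with a chi-square of 1.34 a gene where 4 libraries sequenced again gave 1.37 to 2.58 and 35 further pairs of replicates gave 24.7 to 90.3. The pair was therefore counted as 1 sample, by its sum, named WT input 2/3. KO TRAP 1 and WT input 5 held both Xist and Y-linked transcripts at 5 CPM or more (CPM, counts scaled by library total), while the other 16 libraries held one or the other. The targeted gene Celf6 averaged 51.2 ± 38.1 CPM in KO TRAP and 142 ± 41.5 CPM in WT TRAP (SD, n = 5 each), and 15.2 ± 6.37 CPM in KO input (n = 5) and 51.0 ± 47.2 CPM in WT input (n = 3). The groups overlapped: the library labelled KO TRAP 1 held 115 CPM of Celf6, near WT TRAP 4 (116) and above WT TRAP 5 (85.3), while the other KO TRAP libraries held 21.4 to 56.5. In input, WT input 2/3 held 15.4 CPM, inside the KO range of 4.79 to 22.0, while WT input 1 held 33.2 and WT input 5 held 105 CPM. The Celf6 difference did not pass the test in either kind of RNA (log2 fold change −1.52 ± 0.38 in TRAP and −1.57 ± 0.66 in input, edgeR adjusted p = 0.999 and 1.00). Without the library labelled KO TRAP 1 the difference in TRAP was −1.93 (edgeR adjusted p = 0.474), and without WT input 5 that in input was −0.44 (edgeR adjusted p = 1.00). The labels KO TRAP 1 and WT input 2/3 were thus not borne out by Celf6, and most of the input difference rests on 1 library. The serotonin markers Tph2 and Slc6a4 were higher in TRAP than in input by 5.89 ± 0.36 and 5.37 ± 0.32 on the log2 scale (edgeR adjusted p = 1.44e-11 and 1.26e-11).

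As background, neuronal activity raises calcium and activates kinases that phosphorylate the factor CREB, which binds cyclic AMP response elements, and the ternary complex factors that act with serum response factor at CArG boxes. Both kinds of site lie in promoters or enhancers of many of these genes. The AP-1, Egr and Npas4 proteins then act on a second wave of genes that encode secreted peptides and synaptic proteins.

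RefSeq promoters of 7 of the 10 genes (250 bases before to 50 after the start, build GRCm38.p6, which is mm10) were searched on both strands for letters of these sites. The table holds 11 windows for these 7 genes, since Egr2 has several start sites with overlapping windows, and its percentages are per window. The half-site TGACG of the cyclic AMP response element stood in 8 of the 11 windows, from 6 of the 7 genes (Fos, Fosb, Junb, Egr2, Npas4 and Nr4a1), against 20.8% of all 32851 windows in the table. The full palindrome TGACGTCA, which contains that half-site, was found in 0 of the 11 and in 1.79% of all windows, and the AP-1 site TGANTCA in 0 of the 11 and in 7.81%. A CArG box was found in 4 of the 11, all of Egr2, and in 1.63% of all windows. The Egr site GCGNGGGCG was found in 2 of the 11 (Fosb and Nr4a1) and in 5.55% of all windows, the CCAAT box in 5 of the 11 (Jun, Junb and Egr2) and in 37.4%, and TATAAA in 2 of the 11 (Fos and Junb) and in 13.6%. A match is a match of letters and not a bound site. One stretch of 30 bases per gene is shown so that a match can be read in its surroundings. Each runs 5′ to 3′ along the gene's strand, and capitals mark 1 match a stretch: the half-site (or its reverse complement CGTCA), the CArG box in Egr2, and the CCAAT box in Jun, which had no half-site. The Npas4 stretch holds another half-site, left in lower case, at 169 bases before the start.
Fos, chr12:85473811-85473840, plus strand, 66 bases before the start: cagttccgcccagTGACGtaggaagtccat
Fosb, chr7:19310089-19310118, minus strand, 60 bases before the start: atggagttgcgggTGACGcaagcgcggggg
Junb, chr8:84978838-84978867, minus strand, 106 bases before the start: cgcttcctgacagTGACGcgagccgcctcc
Npas4, chr19:4990134-4990163, minus strand, 179 bases before the start: ctctcccgttcgaCGTCAcgggatgacgtc
Nr4a1, chr15:101266793-101266822, plus strand, 40 bases before the start: gcccctctccatgCGTCAcggagcgcttaa
Egr2, chr10:67537787-67537816, plus strand, 72 bases before the start: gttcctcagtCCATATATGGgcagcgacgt
Jun, chr4:95052271-95052300, minus strand, 65 bases before the start: agaacgacgcaagCCAATgggaaagcctcg
The Fos, Junb, Fosb, Npas4 and Nr4a1 stretches carry a half-site in otherwise different surroundings. Of the 6 genes with a half-site, Fos and Nr4a1 had more than 3 counts in 18 of 18 libraries. Npas4 did in 11, Junb in 7, Egr2 in 4 and Fosb in 3. A relation of the half-site to level was not tested.

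The 10 genes fell into a group counted in all 18 libraries and a group near the limit of detection. Fos, Jun, Egr1, Arc and Nr4a1 had more than 3 counts in 18 of 18 libraries. Npas4 did in 11, Junb in 7, Egr2 and Ier2 in 4 each and Fosb in 3. A count of 0 allows up to 0.268 to 0.885 CPM, taken as 3 counts of the library total, so a library at 0 is one where the gene was not detectable at this depth. Levels between genes were compared per kilobase of exon. In input the median was highest for Egr1 (24.6 CPM per kb, n = 8), followed by Jun (16.4), Arc (7.23), Nr4a1 (4.09), Fos (3.16) and Npas4 (2.34), and the other 4 were below 0.2 CPM per kb. In TRAP the order began with Jun (9.19 CPM per kb, n = 10), Egr1 (6.72), Arc (6.48), Nr4a1 (4.80), Fos (4.10) and Npas4 (1.16). Between neighbours in these orders the ranges overlapped, and the gap between medians was smaller than the SD of the higher gene, except between Jun and Arc in input and between Fos and Npas4 in TRAP. For instance, Egr1 in input averaged 28.9 ± 11.7 CPM per kb and Jun 18.1 ± 6.11 (SD, n = 8).

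**Figure D1:**
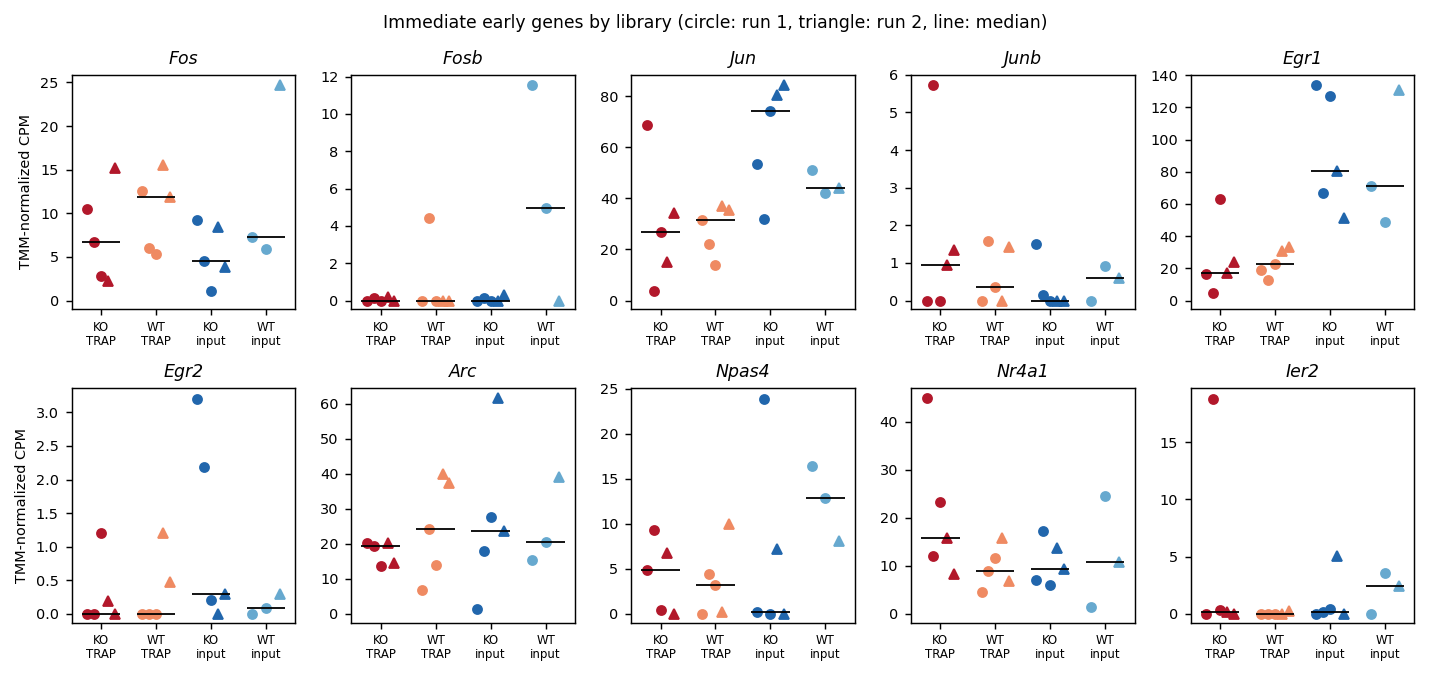
TMM-normalized CPM of each immediate early gene (y axis, from 0) in KO TRAP, WT TRAP, KO input and WT input, 1 point a library (circle for run 1, triangle for run 2), with the group median as a line. Egr1 points in TRAP lie below the input points except KO TRAP 3 at 63.3 CPM, while KO and WT points overlap for Egr1 in each kind of RNA.

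Egr1 was the member that differed between serotonin cell ribosomes and whole tissue. It stood at 16.7, 4.58, 63.3, 17.1 and 23.8 CPM in KO TRAP 1 to 5 and at 18.8, 12.9, 22.5, 30.9 and 33.3 CPM in WT TRAP 1 to 5. In input it stood at 134, 66.6, 127, 80.5 and 51.5 CPM in KO 1 to 5, and at 70.9, 48.6 and 131 CPM in WT 1, 2/3 and 5. Of the 10 TRAP libraries, 9 lay below the lowest input library, and KO TRAP 3 lay within the input range. Egr1 was 3.59-fold lower in TRAP than in input (log2 fold change −1.85 ± 0.37, edgeR adjusted p = 0.00317), and the difference in mean log2 CPM was −2.15 within run 1 and −1.83 within run 2. Leaving out the library labelled KO TRAP 1 gave a log2 fold change of −1.79 (adjusted p = 0.00592), and leaving out WT input 5 gave −1.58 (adjusted p = 0.0387). Leaving out both, an alternative chosen after seeing the data, gave −1.49 (adjusted p = 0.0623), and the call was lost. It was also lost with run 1 libraries alone (−1.85, adjusted p = 0.0634) and with WT input 2/3 and WT input 5 both left out (−1.71, adjusted p = 0.0709).

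In TRAP against input, 1 of the 8 members tested passed, which was Egr1. Over all 14261 genes tested, 673 (4.72%) passed, 343 higher (2.41%) and 330 lower (2.31%), and with the replicate number as a block 207 passed, Egr1 among them. In that block the WT difference comes only from WT 1 and WT 5, since the other WT TRAP libraries had no input partner. The WT 5 pair was not alike by Xist and Y-linked transcripts. Without the library labelled KO TRAP 1 and WT input 5, 337 genes passed, and 123 with the block as well (edgeR adjusted p = 0.0941 for Egr1). With those libraries left out, the WT difference in the block comes only from WT 1. All TRAP and all input libraries of a member were apart in 0 of 8, against 0.75% of all genes. Fewer cells of a type and less RNA per cell cannot be told apart in such bulk samples. TRAP and input also differ both in the cells and in the RNA taken, ribosome-bound against total, which cannot be told apart either. Markers of glia were lower in the same contrast: 5 of 8 oligodendrocyte lineage markers (summed level 1059 to 5450 CPM in TRAP and 4868 to 12990 CPM in input) and 4 of 8 astrocyte markers (190 to 634 CPM in TRAP and 709 to 1195 CPM in input) fell. Of 8 markers of other neurons 2 fell, Gad2 and Slc32a1 (summed level 280 to 733 CPM in TRAP and 602 to 1635 CPM in input). Of 8 markers each of microglia and of endothelial and mural cells, 0 passed in edgeR, with 3 and 0 at an unadjusted p below 0.05 and 1 and 0 by DESeq2 (summed level 13.4 to 78.2 CPM in TRAP and 27.4 to 155 CPM in input, and 12.02 to 97.4 CPM in TRAP and 21.9 to 55.5 CPM in input). In no group was a marker of these lists at 0 in every library. The part of other cell types in the Egr1 difference was not tested.

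Jun, the main partner of Fos proteins in AP-1, had the second lowest p among the members. It stood at 68.7, 3.597, 27.0, 15.3 and 34.2 CPM in KO TRAP 1 to 5 and at 31.6, 22.3, 14.0, 37.1 and 35.4 CPM in WT TRAP 1 to 5, against 53.5, 31.9, 74.1, 80.5 and 84.4 CPM in KO input 1 to 5 and 51.2, 42.3 and 44.0 CPM in WT input 1, 2/3 and 5. The WT groups did not overlap, while in KO the 2 highest TRAP libraries, the library labelled KO TRAP 1 and KO TRAP 5, lay inside the input range. The log2 fold change of TRAP over input was −0.92 ± 0.38 and did not pass (edgeR adjusted p = 0.17). Without the library labelled KO TRAP 1 it was −1.29 (adjusted p = 0.0306), and without WT input 5 as well −1.41 (adjusted p = 0.0481), so the call of Jun turns on the library labelled KO TRAP 1. Within WT, Egr1 and Jun were the 2 of the 8 members whose TRAP and input libraries did not overlap, against 7.43% of all genes tested. Within KO it was 0 of 8, against 3.38% of all genes.

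Arc and Nr4a1 did not pass the test between serotonin cell ribosomes and whole tissue. Arc stood at 20.2, 19.5, 13.7, 20.2 and 14.4 CPM in KO TRAP 1 to 5 and at 6.89, 24.2, 14.0, 40.0 and 37.3 CPM in WT TRAP 1 to 5. In input it stood at 1.52, 18.1, 27.7, 61.6 and 23.8 CPM in KO 1 to 5 and at 15.4, 20.4 and 39.2 CPM in WT 1, 2/3 and 5. The KO TRAP libraries held a narrow range, and KO input held both the lowest and the highest Arc level of all 18 libraries. Nr4a1 stood at 44.9, 12.1, 23.4, 15.8 and 8.28 CPM in KO TRAP 1 to 5 and at 4.51, 9.00, 11.7, 15.8 and 6.89 CPM in WT TRAP 1 to 5. In input it stood at 7.08, 17.2, 5.97, 13.7 and 9.41 CPM in KO and at 1.397, 24.6 and 10.9 CPM in WT. All groups overlapped for both genes, with the highest Nr4a1 level in the library labelled KO TRAP 1. The log2 fold change of TRAP over input was −0.25 ± 0.43 for Arc and 0.30 ± 0.51 for Nr4a1 (edgeR adjusted p = 0.818 and 0.815).

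Fos, the prototype of the family, was low in both kinds of RNA. It stood at 10.5, 6.70, 2.85, 2.26 and 15.2 CPM in KO TRAP 1 to 5 and at 12.6, 5.999, 5.32, 15.6 and 11.9 CPM in WT TRAP 1 to 5, against 9.28, 4.52, 1.07, 8.39 and 3.82 CPM in KO input and 7.33, 5.88 and 24.7 CPM in WT input. These levels rest on 5 to 82 counts a library. The groups overlapped, the highest library being WT input 5, and the log2 fold change of TRAP over input was 0.12 ± 0.57 (edgeR adjusted p = 0.945). It was 0.42 without WT input 5 and −0.03 without the library labelled KO TRAP 1. Npas4, whose transcription depends on neuronal activity more than that of the other members, ranged from 0 to 9.32 CPM in KO TRAP, 0 to 9.98 CPM in WT TRAP, 0 to 23.9 CPM in KO input and 8.14 to 16.4 CPM in WT input. WT input was the group with no library near 0, and KO input held both the highest library of all, KO input 2, and 3 libraries at 0 or 1 count. Its log2 fold change of TRAP over input was −1.11 ± 1.04 (edgeR adjusted p = 0.622). Over the 8 members tested the median log2 fold change of TRAP over input was −1.02, with 6 of 8 negative, beside 0.02 and 48.4% negative over all genes tested. Among the negative values the SE was near or above the size for Fosb (−1.31 ± 1.51), Npas4, Ier2 (−1.28 ± 1.28) and Arc (−0.25 ± 0.43). The signs of these genes therefore say little.

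**Figure D2:**
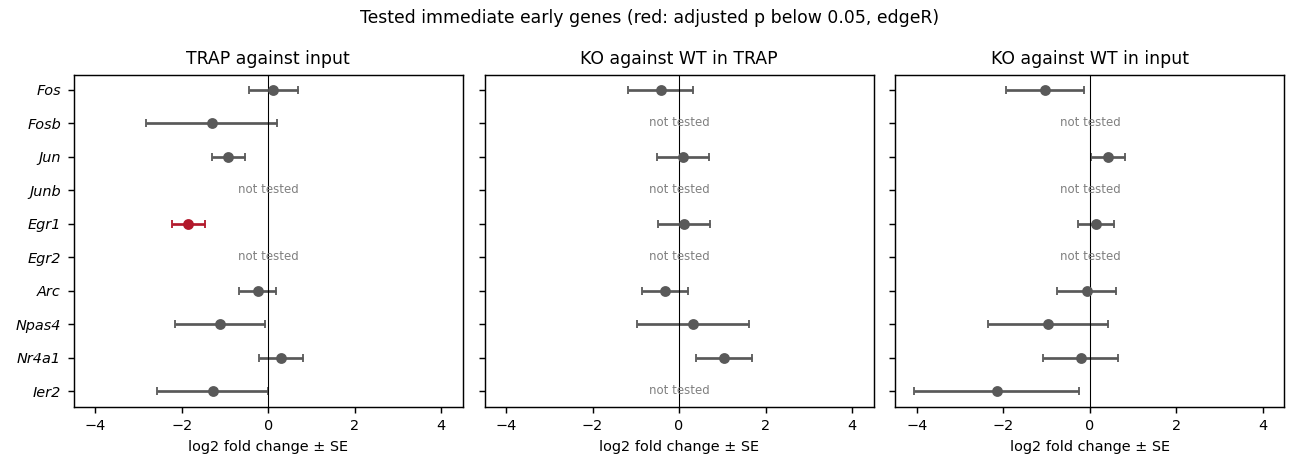
Log2 fold changes with SE of the immediate early genes that could be tested, for TRAP against input, KO against WT in TRAP and KO against WT in input, 1 panel each, with a gene too low for a comparison marked as not tested. Egr1 in TRAP against input, at −1.85 and in red, is the value that passed the test.

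No immediate early gene passed between KO and WT in serotonin cell TRAP RNA. The same test did not call the targeted gene Celf6 (edgeR unadjusted p = 0.000761, adjusted p = 0.999), so a member without a call may still differ. Of the 6 members tested, edgeR called 0 (adjusted p = 0.999 for each), 0 had an unadjusted p below 0.05 and DESeq2 called 0. Over all 12204 genes 0% passed in edgeR, 3.73% had an unadjusted p below 0.05 and DESeq2 called 1. KO and WT libraries overlapped for all 6, while they were apart in 0.721% of all genes. Nr4a1 had the smallest p: it averaged 20.9 ± 14.5 CPM in KO TRAP and 9.58 ± 4.37 CPM in WT TRAP (SD, n = 5 each), a log2 fold change of 1.03 ± 0.64 with an edgeR adjusted p = 0.999. Without the library labelled KO TRAP 1, its highest, it was 0.62 (edgeR adjusted p = 0.995). Its difference in mean log2 CPM was 1.53 within run 1 and 0.13 within run 2. Egr1 averaged 25.1 ± 22.4 CPM in KO TRAP and 23.7 ± 8.44 CPM in WT TRAP, and Jun 29.7 ± 24.7 and 28.1 ± 9.74 CPM in KO TRAP and WT TRAP. The SD of both genes was more than 2 times as large in KO TRAP as in WT TRAP, a difference in spread that was not tested. The remaining log2 fold changes were −0.43 ± 0.75 for Fos, −0.33 ± 0.53 for Arc and 0.32 ± 1.30 for Npas4. Without the library labelled KO TRAP 1 the value was −0.71 for Fos and −0.57 for Jun, which is the reverse of its direction with all libraries.

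In total RNA, 7 members could be tested between KO and WT, and edgeR called 0 (adjusted p = 1.00 for each), with 0 at an unadjusted p below 0.05 and 0 by DESeq2. DESeq2 gave no adjusted p for 1 of the 7, Npas4. Over all 13036 genes 0% passed, 2.88% had an unadjusted p below 0.05 and DESeq2 called 0. KO and WT libraries overlapped for all 7, while they were apart in 2.24% of all genes. Fos averaged 5.41 ± 3.39 CPM in KO input (n = 5) and 12.6 ± 10.5 CPM in WT input (n = 3), a log2 fold change of −1.03 ± 0.91, with WT input 5 alone above the KO range. Without WT input 5 it was −0.41 ± 1.25 (edgeR adjusted p = 1.00). Jun averaged 64.9 ± 21.9 CPM in KO input and 45.8 ± 4.72 CPM in WT input (0.43 ± 0.39), and Egr1 91.9 ± 36.7 and 83.3 ± 42.4 CPM in KO input and WT input (0.15 ± 0.42). Arc (−0.08 ± 0.69), Nr4a1 (−0.21 ± 0.86), Npas4 (−0.97 ± 1.39) and Ier2 (−2.16 ± 1.92) had errors near or above the size of the difference. Without WT input 5 the values were 0.18 for Jun and 0.87 for Egr1, and that of Npas4 was −4.84 without KO input 2 and −6.86 ± 2.38 with the replicate block (edgeR adjusted p = 0.775). With that block the genotype difference comes only from KO input 1 against WT input 1 and KO input 5 against WT input 5. These pairs share a number and not a brain. The 3 WT input libraries limit this comparison, in which the targeted gene Celf6 did not pass either.

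The genotype difference in TRAP was set against that in input in 1 fit for 8 members, of which edgeR called 0 (adjusted p = 1.00 for each) and DESeq2 0. DESeq2 gave no adjusted p for 2 of the 8, Ier2 among them. Over 14261 genes 0% passed in edgeR, 3.88% had an unadjusted p below 0.05 and DESeq2 called 3. Ier2 was the 1 member past 0.05 before adjustment (7.83 ± 3.26 on the log2 scale, edgeR adjusted p = 1.00). For Egr1 the genotype difference in TRAP minus that in input was −0.06 ± 0.74. The Ier2 value rests on 1 library, KO TRAP 2, since WT TRAP held 1 Ier2 count in all, and a fitted fold change at such counts depends on the prior count.

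Ier2, Fosb, Junb and Egr2 were present in a few libraries and at or near 0 in the others. Ier2 had 115 counts in KO TRAP 2 (18.8 CPM), 43 in WT input 2/3, 21 in KO input 4, 8 in WT input 5 and at most 2 in any other library, so that KO TRAP 2 held 59.3% of its counts. Fosb had 66 counts in WT input 1, 59 in WT input 2/3 and 28 in WT TRAP 2, and at most 1 in any other library. The 3 libraries with more than 3 Fosb counts were WT, against 0 of 10 KO libraries above 3 counts and 5 WT libraries at 0. Fosb was too low to be tested between KO and WT. In TRAP against input the log2 fold change was −1.31 ± 1.51 for Fosb and −1.28 ± 1.28 for Ier2 (edgeR adjusted p = 0.705 and 0.648), and Junb and Egr2 were too low to be tested in any comparison. Junb had 35 counts in KO TRAP 2 and at most 11 elsewhere, and Egr2 had 19 in KO input 1, 15 in KO input 2 and at most 8 elsewhere. The high libraries differed between genes: KO TRAP 2 led for Ier2 and Junb and had 1 Fosb count and 0 Egr2 counts.

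These patterns returned when a library was sequenced again. The 4 replicate 3 libraries were run a second time on run 2, and those repeat runs entered no comparison. Of 40 pairs of a member and a replicate 3 library, 9 were at 0 in the first run and all 9 were at 0 in the second. In the 23 pairs with 10 or more counts in the first run, the share of counts in the second run was 0.476 to 1.68 times that in the first. Npas4 had 63 and 71 counts in the 2 runs of WT input 3, against 0 and 0 in those of KO input 3. Fosb had 16 and 20 counts in WT input 3, and 0 and 0 in KO TRAP 3, WT TRAP 3 and KO input 3. The amplification step before library preparation was shared by both runs, and its part was not tested.

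**Figure D3:**
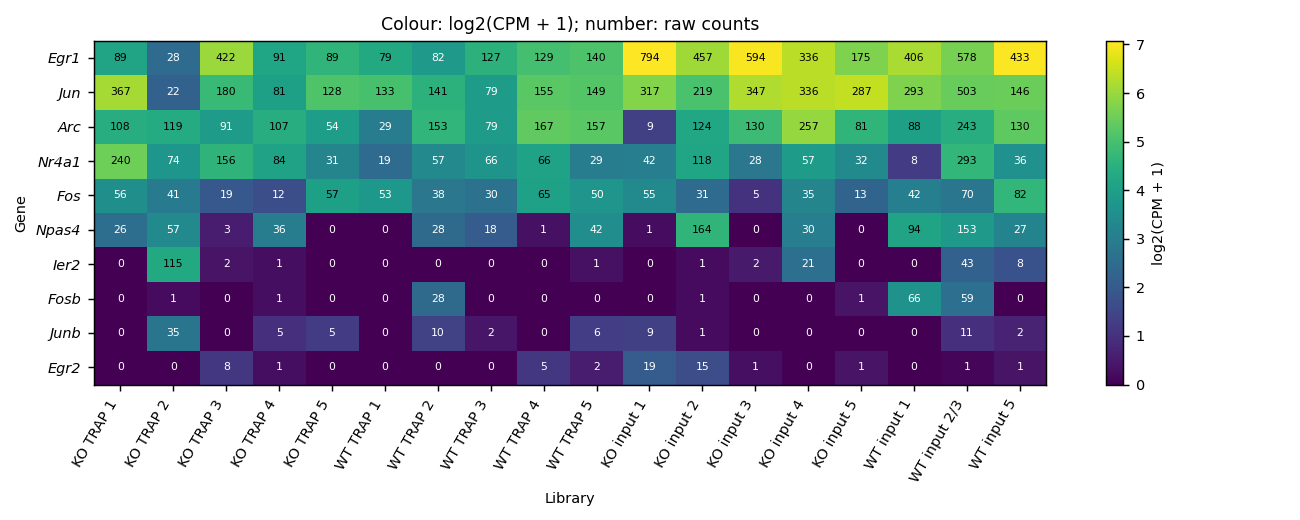
The immediate early genes in each of the 18 libraries, with genes as rows and libraries as columns from KO TRAP to WT input, colour for log2(CPM + 1) and the raw count written in each cell. Egr1 and Jun form continuous bands, while Fosb, Junb, Egr2 and Ier2 show single high libraries such as KO TRAP 2 for Ier2 (18.8 CPM).

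Spread between libraries was compared with that of other genes of like level, within 1.5-fold of the member's mean CPM. The edgeR dispersion, which measures variation beyond counting noise, was larger for Npas4 than for 95.7% of the 1738 genes of like level, for Ier2 than for 92.9% of 1212, for Egr1 than for 84.6% of 2709, for Jun than for 76.6% of 2783 and for Fosb than for 73.5% of 931. It was near the middle for Arc (56.4%) and Nr4a1 (41.4%). Fos, whose dispersion exceeded that of 20.5% of 1954 genes of like level, varied less than most genes at its level.

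No relation between Fos and another member over libraries passed the test. Within TRAP (n = 10) and within input (n = 8), 18 relations between Fos and another member were computed on log2 CPM, and 0 passed after Benjamini-Hochberg adjustment over the 18 by permutation tests. Jun in TRAP came closest, with Pearson r = 0.437 (permutation p = 0.213, adjusted 0.945) and Spearman rho = 0.661 (permutation p = 0.0454, adjusted 0.56). Without the 2 libraries farthest from the median of Fos, r was 0.628, and in the 6 run 1 libraries it was 0.265. Egr1 against Fos had r = −0.0257 in TRAP (permutation p = 0.945) and 0.176 in input (exact permutation p = 0.687), with rho of 0.2 and 0.548 (permutation p = 0.583 and 0.171, adjusted 0.892 and 0.56). Without the 2 libraries farthest from the median of Fos, r of Egr1 was 0.557 in TRAP and 0.763 in input. In the 6 run 1 TRAP libraries it was −0.49, so it turns on a few libraries. Arc against Fos had r = 0.148 in TRAP and −0.0496 in input (permutation p = 0.682 and 0.877), with rho of 0.273 and 0 (permutation p = 0.449 and 1).

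Over all 18 libraries, after the mean of each kind of RNA was taken off, the 5 genes whose levels were most like Fos among 11344 genes were Mvb12a (r = 0.847), Serping1 (0.755), Smug1 (0.751), Esrra (0.721) and Abcc9 (0.709). Other immediate early genes ranked from 2626 for Jun (r = 0.176) and 3825 for Npas4 (0.0988) to 7269 for Nr4a1 (−0.0986). The 5 most like Egr1 were Epas1 (0.879), Tmem165 (0.844), Smim19 (0.827), Zdhhc6 (0.826) and Siae (0.806), and Jun ranked 444 (0.534). Fos ranked 5018 (0.0481), Nr4a1 6081 (−0.0322), Arc 6930 (−0.0921) and Npas4 10216 (−0.389). These are descriptions across libraries that share depth, run and amplification.

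Genes related to these 10 by family or by role were then counted in the same fits. Of 10 other AP-1 family genes, 7 were tested in TRAP against input and edgeR called 0, with 3 at an unadjusted p below 0.05 and a median log2 fold change of 0.46. Jund, an AP-1 subunit that is present in many cells without a stimulus, was at 1.03 ± 0.33 (edgeR adjusted p = 0.0699, below 0.05 under 5 of 29 alternatives), and Fosl2 at −1.27 ± 0.46 (adjusted p = 0.118, below 0.05 under 4 of 29 alternatives). Of the 4 other Egr and Nr4a genes 3 were tested and edgeR called 0, with 0 at an unadjusted p below 0.05. Egr3 was at −1.40 ± 1.02 and Nr4a2 at −0.74 ± 0.59 on the log2 scale. Of 33 other rapid primary response genes 32 were tested and edgeR called 0, with 3 at an unadjusted p below 0.05 and a median of −0.065. The smallest p were those of Sik1 (−0.82 ± 0.34, adjusted p = 0.175), a salt-inducible kinase gene, and Rgs2 (0.54 ± 0.23, adjusted p = 0.187), a regulator of G protein signalling. By DESeq2, 3 other AP-1 genes (Jund, Fosl2 and Mafk), 0 other Egr and Nr4a genes and 0 other rapid primary response genes passed. DESeq2 gave no adjusted p for 1 of the 3 Egr and Nr4a genes and 3 of the 32 rapid primary response genes.

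Among 15 delayed activity-regulated effector genes, all tested, 2 rose in TRAP over input and 0 fell, with a median of −0.11. Scg2, which encodes secretogranin II of dense core vesicles, rose by 1.92 ± 0.27 on the log2 scale (edgeR adjusted p = 5.58e-05) and passed under each of 29 alternatives. Tac1, which encodes the precursor of substance P, rose by 0.99 ± 0.27 (adjusted p = 0.0335). Its call was lost without any 1 of KO TRAP 3, WT TRAP 2, WT TRAP 4, WT TRAP 5, KO input 2, KO input 4, KO input 5 or a WT input library, with adjusted p of at most 0.0999. Of 32 upstream regulators, all tested, 2 rose and 1 fell, with a median of −0.15. Rps6ka2, a ribosomal S6 kinase gene, rose by 1.11 ± 0.29 (adjusted p = 0.0272) and Mapk3, which encodes the kinase ERK1, by 0.65 ± 0.18 (adjusted p = 0.0339). Crebbp, which encodes the CREB binding protein, fell by 0.85 on the log2 scale (SE 0.20, adjusted p = 0.0126), a call kept without any single library. The call of Rps6ka2 was lost without the library labelled KO TRAP 1, WT TRAP 2, WT TRAP 3, WT input 1 or WT input 2/3 (adjusted p of at most 0.0954). That of Mapk3 was lost without KO TRAP 2, WT TRAP 2, WT TRAP 4, WT TRAP 5, KO input 3, KO input 4 or any WT input library (adjusted p of at most 0.104). With the replicate number as a block the adjusted p was 0.30 for Tac1, 0.343 for Rps6ka2, 0.304 for Mapk3 and 0.237 for Crebbp, so those 4 calls were lost there. The calls stand beside 2.41% of all genes called higher and 2.31% called lower.

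**Figure D4:**
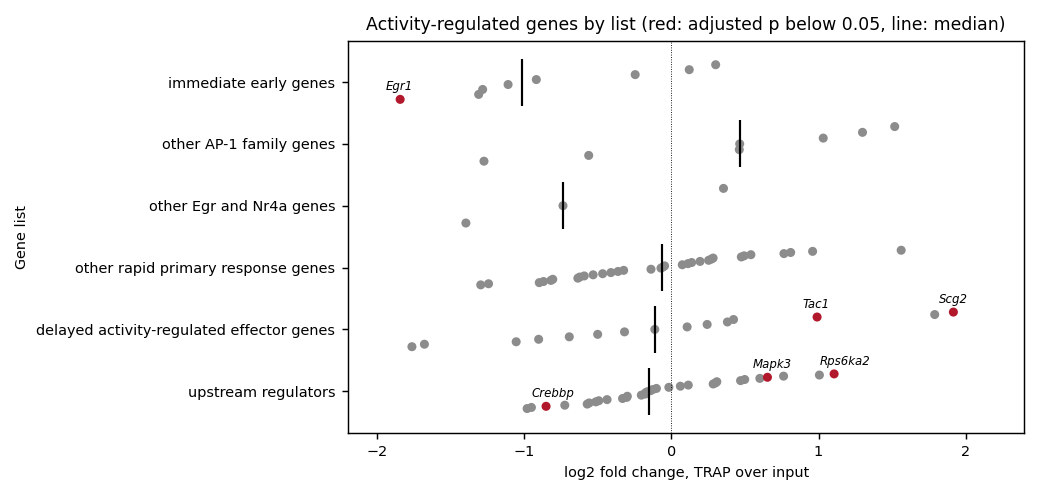
Log2 fold change of TRAP over input for each gene of the member list and the 5 related lists, 1 point a gene, with a line at each list's median and the genes that passed in edgeR in red and named. Scg2 at 1.92 and Egr1 at −1.85 are the named points farthest from 0.

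Between KO and WT, edgeR called 0 genes of these 5 related lists in TRAP (76 tested) and 0 in input (79 tested), with 2 each at an unadjusted p below 0.05, and DESeq2 called 0 in both. In the difference between the 2 kinds of RNA (89 tested) edgeR and DESeq2 called 0, with 6 at an unadjusted p below 0.05. DESeq2 gave no adjusted p for 3 of the 76 in TRAP and 4 of the 89 in that difference. Of the marker lists, edgeR called 0 genes between genotypes in either kind of RNA, and DESeq2 called 1, the macrophage marker Cd68 in TRAP. There it gave no adjusted p for 1 marker each of the oligodendrocyte lineage, endothelial and mural cells and other neurons. In the AP-1 list Fosl2 had the smallest p in TRAP (−1.76 ± 0.63, edgeR adjusted p = 0.999), followed by Mafg (0.57 ± 0.45). In input Mafg was at −1.28 ± 0.50 (edgeR adjusted p = 1.00) and Fosl2 at −1.15 ± 0.51 (edgeR adjusted p = 1.00).

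Alternative splicing gave little on these genes. The authors' deposited tables of the fraction of transcripts with 1 isoform (percent spliced in, PSI) held 1 event in a member gene, a retained intron of Egr1, with a value in 1 library, KO input 1 (PSI 0.970). No comparison between KO and WT could be made from it.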

How the data were processed

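The authors deposited gene counts in a file for each library, made with featureCounts 1.4.6-p5 on mm10 without strand or multi-mapping options, per the file headers. Trimmomatic and STAR came before, per the submitters' processing notes, with no version given. RNA was amplified (Nugen Ovation 2) before library preparation (NEBNext Ultra), per the labels. The deposited PSI values are fractions from MISO that the authors filtered to credible intervals of 0.20 or less, per the series text. None of the 10 genes shares exon bases with another gene in the annotation of the count files.

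Genes passing filterByExpr were tested in R 4.3.3 with edgeR 4.0.16 (TMM, quasi-likelihood F test, sequencing run as covariate, Benjamini-Hochberg adjustment over all genes tested, threshold 0.05). KO and WT were compared within TRAP (10 libraries) and within input (8 libraries). TRAP against input was the mean of the KO and WT differences and, like the interaction, came from all 18 libraries. CPM are TMM-normalized. DESeq2 1.42.0 and the settings named in the closing section were alternatives. Correlations used permutation tests (100000 resamples for 10 libraries, exact for 8). The edgeR fits were tested on counts simulated from the fitted dispersions, with no run effect and no pairing. That test does not bear on run, pairing or labels. Floors cover counting error only. The SE of an edgeR log2 fold change is its size divided by the square root of F, and includes the spread between libraries. Nothing in the labels says more about how replicates were obtained than 1 brain each, so p-values measure the spread between these samples.

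The series text gives 5 brains per genotype for both kinds of RNA, so equal numbers were read as 1 brain in a replicate block. By Xist and Y-linked transcripts 5 of 7 TRAP and input pairs were alike, and KO 1 and WT 5 were not, so 1 brain is not borne out there. Residual levels of such pairs correlated at −0.0225 to 0.0681 (6 pairs), and the block was used as an alternative. These values are not all independent, since residuals mirror each other where a group holds 2 libraries in a run. Members and lists were chosen with earlier results of these data known. All members are named. Of other lists, genes that passed (at most 4 by p) or else the 2 with the smallest p are named in TRAP against input, as is the AP-1 list between genotypes. Celf6, Tph2 and Slc6a4 served as checks, and the 5 genes most like Fos and Egr1 were taken among genes with a mean of at least 5 CPM.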

Additional observations from a re-analysis of the deposited data

Results flagged for a closer look

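In 7 of 30 sets of 1 member gene in 1 group of 5 libraries, 1 library stood apart from the other 4 by Dixon's test, which reads counts near 0 as well as high ones. The test's rate of about 1 flag in 20 sets by chance holds for normally distributed values. It gives no yardstick for genes mostly at 0, where 1 library with a single count can be flagged. The flagged sets were all of Fosb, Junb, Egr2 or Ier2. KO TRAP 2 stood apart for Ier2 (18.8 CPM, the next library at 0.300) and for Junb (5.72 CPM, the next at 1.34). KO TRAP 3 stood apart for Egr2 (1.2 CPM, the next at 0.188). KO input 1 stood apart for Junb (1.52 CPM, the next at 0.146) and KO input 4 for Ier2 (5.03 CPM, the next at 0.427). WT TRAP 2 stood apart for Fosb (4.42 CPM, the next at 0), and WT TRAP 5 for Ier2 (0.238 CPM, the next at 0), which is 1 count. WT input, with 3 libraries, was too small for this test. Fos, Jun, Egr1, Arc, Nr4a1 and Npas4 had no library apart in the 3 groups tested.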

How the results depend on the processing

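Of the 957 values of single genes under alternatives, 854 kept their direction and side of the threshold, 39 changed direction and 64 changed their call alone. TRAP against input called 1290 genes by DESeq2, 1065 with no filter on low counts, 207 with the replicate block (192 of them shared with the 673), 233 in run 1 alone and 186 without WT input 2/3 and WT input 5 (an alternative chosen after seeing the data), 337 without KO TRAP 1 and WT input 5 and 123 with the replicate block as well (both chosen after seeing the data), and 346 to 831 with 1 library left out. Members called there were 0 in run 1 alone and 0 without both WT inputs, 0 with the replicate block without KO TRAP 1 and WT input 5, and 1 to 2 with 1 library left out. KO against WT in TRAP called 1 gene by DESeq2, 16 with no filter and 264 in run 2 alone. In input it called 4 with no filter, 5 with the replicate block, 89 in run 2 alone, and 0 to 1 with 1 library left out. The interaction called 3 by DESeq2, 3 with no filter and 29 in run 2 alone. Members called between genotypes and in the interaction were 0 under each alternative run, with a missing DESeq2 adjusted p counted as no call. Run 2 alone holds 2 libraries a group and 1 for WT input, which is assumed to vary like the others, and the cause of the other moves was not tested. Values that changed direction were those of genes with no call. Without KO TRAP 1 and WT input 5, Jun passed and Egr1, Tac1, Rps6ka2 and Mapk3 did not. With the replicate block as well, Ier2 in the interaction was −0.052 with an SE of 5.202e+04. That value carries no direction, though it is counted among the 39. The replicate block with all libraries changed no member's call, and reversed Jun and Egr1 between genotypes in TRAP (−0.33 each) and Egr1 (−0.21) and Nr4a1 (1.01) in input. KO and WT of equal number share only a number (residual r −0.0226 to 0.0465 in 5 TRAP pairs, not all independent, and 0.128 in 1 input pair). In input only numbers 1 and 5 were held by both genotypes. Run 2 alone reversed Jun (−0.57), Egr1 (−0.66) and Npas4 (−0.58) in TRAP, Egr1 (−0.97), Arc (0.13), Nr4a1 (0.097) and Ier2 (0.076) in input, Fos (−0.17) in TRAP against input and Ier2 (−0.24) in the interaction. Run 1 alone reversed Arc in TRAP (0.26), and no run covariate reversed it in input (0.090). Without both WT inputs Arc (0.035), Nr4a1 (2.83) and Ier2 (3.10) reversed in input and Ier2 (1.78) in TRAP against input. Leaving out 1 library also reversed uncalled values. In TRAP these were Jun without KO TRAP 1 (−0.57) and WT TRAP 3 (−0.096), Egr1 without KO TRAP 3 (−0.72) and WT TRAP 2 (−0.069), and Npas4 without KO TRAP 2 (−0.24), KO TRAP 4 (−0.036) and WT TRAP 1 (−0.082). In input they were Egr1 without KO 1 (−0.012), WT 1 (−0.00031) and WT 2/3 (−0.22), Arc without KO 1 (0.26), KO 5 (0.063) and WT 2/3 (0.078), and Nr4a1 (1.25) and Ier2 (0.85) without WT 2/3. In TRAP against input they were Fos without KO TRAP 1 (−0.027), KO TRAP 5 (−0.014), KO input 3 (−0.0078) and WT input 2/3 (−0.014). The leave-one-out ranges were −0.57 to 0.36, −0.72 to 0.36 and −0.24 to 1.52 for Jun, Egr1 and Npas4 in TRAP, −0.22 to 0.87, −0.48 to 0.26, −0.71 to 1.25 and −3.18 to 0.85 for Egr1, Arc, Nr4a1 and Ier2 in input, and −0.027 to 0.42 for Fos in TRAP against input. Npas4 in input kept its sign at −4.84 (without KO input 2) to −0.63, and was −6.86 with the block. The relations with Fos passing were 0 under each alternative. The PSI test on another scale could not be run with a value in 1 library. Depth limits Fosb, Junb, Egr2 and Ier2, whose medians were 0 to 1.5 counts.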
